A study of Mus musculus with 34 samples.

Results

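The exons described here are alternative cassette exons longer than 50 nt that untreated N2A cells, a mouse neuroblastoma line, include at an intermediate level. They were selected on measured values: an annotated exon event of more than 50 nt was taken if its mean percent spliced in (PSI, the percentage of transcripts that contain the exon) over the 3 DMSO libraries lay from 10 to 90 and its read coverage carried one of the top quality scores in each of the 3. The rule gave 2550 exons in 1878 genes, out of 160750 exon events in the table, 151965 of which are longer than 50 nt and 55115 of which also had that coverage. The study treated N2A cells for 24 h with 27 small molecules from a screen for modulators of microexon splicing, with every culture at 0.4% DMSO, and sequenced polyA+ RNA. DMSO alone has 3 libraries (replicates A, B and C). BRD6688, BRD4884, CI-994 and Vorinostat (SAHA), which inhibit histone deacetylases (HDAC), have 2 libraries each, and the other 23 compounds have 1 each. The study classes 17 of the compounds as activators of microexon inclusion and 10 as inhibitors. The labels do not say whether replicates are separate cultures, so p-values measure only the spread between these libraries. In DMSO the neuroblastoma lineage markers Hand2 and Stmn2 were at 248 and 175 RPKM (reads scaled to transcript length and sequencing depth), whereas 0 of 5 fibroblast markers were above 1 RPKM and the glial marker Gfap was at 0.29 RPKM.

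A cassette exon is an internal exon that the spliceosome either joins between its neighbours or skips together with both flanking introns. Which of these happens depends on the strength of its splice sites and on RNA-binding proteins that promote or block their recognition, and an exon at intermediate PSI is one at which both outcomes are frequent in the same cells. An exon whose length is a multiple of 3 can be included or skipped without shifting the reading frame. Microexons, of up to 27 nt, are the class the screen was built for, and in neurons many of them depend on the splicing regulator Srrm4.

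Sequences are shown for 9 coding exons, chosen after their values were seen, as examples of exons whose PSI differed between kinds of compound in the results below. Other named exons, such as those of Parp6, Arhgap12 and Sec24c, also did. Snap91, Madd and Golim4 were higher in most activators, and Golim4 also in several inhibitors. Zfp740, Mpzl1 and Myo5a moved with the benzenesulfonamides. Ect2 moved in opposite directions in the HDAC inhibitors and the benzenesulfonamides, and Neurl4 and Reep6 were lower in several inhibitors. The sequences come from the GENCODE vM21 transcripts (GRCm38), matched by gene symbol, exon length and the lengths of both flanking introns. Each is written 5′ to 3′, and capitals mark the first base and the last 3 bases, the exonic parts of the 3′ and 5′ splice sites.
Snap91: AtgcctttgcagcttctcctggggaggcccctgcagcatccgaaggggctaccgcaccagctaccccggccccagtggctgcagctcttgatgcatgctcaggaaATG
Madd: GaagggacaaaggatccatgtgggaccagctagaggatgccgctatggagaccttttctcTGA
Golim4: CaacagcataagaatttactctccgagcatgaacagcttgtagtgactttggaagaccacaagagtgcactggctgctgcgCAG
Zfp740: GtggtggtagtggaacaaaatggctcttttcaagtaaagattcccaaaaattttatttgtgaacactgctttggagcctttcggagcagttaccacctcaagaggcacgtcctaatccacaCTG
Mpzl1: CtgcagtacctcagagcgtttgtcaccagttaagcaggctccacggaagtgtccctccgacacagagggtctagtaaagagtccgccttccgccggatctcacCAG
Myo5a: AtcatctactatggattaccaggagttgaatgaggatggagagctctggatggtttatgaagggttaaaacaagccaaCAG
Ect2: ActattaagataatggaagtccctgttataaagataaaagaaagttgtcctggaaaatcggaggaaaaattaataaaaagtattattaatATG
Neurl4: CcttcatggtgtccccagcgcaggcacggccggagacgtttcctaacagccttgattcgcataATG
Reep6: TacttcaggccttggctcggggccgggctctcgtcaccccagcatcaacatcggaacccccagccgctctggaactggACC
In GRCm38 these exons lie at chr9:86793357-86793464 for Snap91 (exon 15 of the matched transcript), chr2:91155013-91155075 for Madd (exon 24), chr3:75902401-75902484 for Golim4 (exon 7), chr15:102208753-102208876 for Zfp740 (exon 6), chr1:165601750-165601855 for Mpzl1 (exon 5), chr9:75192384-75192464 for Myo5a (exon 31), chr3:27148795-27148887 for Ect2 (exon 4), chr11:69903654-69903719 for Neurl4 (exon 3) and chr10:80334713-80334793 for Reep6 (exon 5). The exons of Snap91, Madd, Golim4, Mpzl1 and Ect2 are on the minus strand and the others on the plus strand. All 9 are coding in GENCODE, and all but those of Zfp740 (124 nt) and Mpzl1 (106 nt) are a multiple of 3 in length.

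Of the 2550 exons, 2099 (82.3%) matched a GENCODE exon, and 48160 of the 52565 other covered exons over 50 nt (91.6%) did. Among the matched exons 1521 (72.5%) were coding, 167 partly coding, 233 in the UTR of coding transcripts, 89 only in transcripts marked for nonsense-mediated decay and 89 only in other noncoding transcripts. Of the other covered exons 93.5% were coding. The coding exons were a multiple of 3 in 58.4% of cases, against 39.7% of the other coding exons. Over all 2550 exons the median length was 111 nt, against 123 nt for the other covered exons. The selected exons ran from 81.0 to 154 nt from the 25th to the 75th percentile. Flanking introns were longer for the selected exons, with medians of 2107 nt upstream and 2197 nt downstream against 1363 and 1277 nt. Among matched exons the share ending in AG, the most common last bases of exons, was 55.6% against 57.3%. Their median GC content was 50.7% against 50.4%. Median expression of the host genes in DMSO was close to that of the other genes, at 22.7 and 24.5 RPKM. These are descriptions, with no test. Most of the genes (1404) held 1 of the exons, and the largest numbers were in Fam188a (10), Cux1 (8) and Snap91 (8). No 2 of the exons overlap.

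Most of the exons are included more often than skipped. Mean PSI in DMSO was from 70 to 90 for 1232 exons, from 50 to 70 for 411, from 30 to 50 for 321 and from 10 to 30 for 586. At the edges of the rule, an exon of Myb (mean PSI 10.0033) was just inside and one of Rnf14 (9.99667) just outside, and one of Utp20 (89.9967) was just inside and one of 2310003L22Rik (90.0133) just outside. Between the 3 DMSO libraries the SD of PSI was 3.13 for the median exon and 10.04 at the 95th percentile. For 630 exons (24.7%) the DMSO libraries spanned at least 10 PSI. Corrected reads at these exons summed to between 847850 and 1910181 per library, and between 2071 and 2233 of the exons passed the filters of the study's methods, on coverage and on the balance of reads from the 2 inclusion junctions.

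An exon was called changed, after the study's methods, if its PSI was 10 or more away from DMSO and the reads gave a posterior above 0.95 for a difference in that direction. This call accounts for read sampling but not for differences between cultures. Compared in the same way with the other 2, DMSO A had 85 exons called higher and 79 lower of 2208 tested, DMSO B 96 and 85 of 2209, and DMSO C 122 and 156 of 2185. These counts, between 7.43% and 12.7% of the exons tested, are the background against which the compounds are read. Over all exon events tested the same comparison called 0.415% higher and 0.46% lower in DMSO A, 0.438% and 0.478% in DMSO B, and 0.377% and 0.593% in DMSO C. Of the other covered exons over 50 nt, 5041 had a mean PSI under 10 in DMSO and 47524 one over 90. The rule used the DMSO values that every comparison below shares as its control.

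All 4 HDAC inhibitors raised more of the exons than they lowered. Vorinostat called 398 exons higher and 160 lower of 2142 tested (all exon events, 1.1% and 0.599%). CI-994 called 401 higher and 132 lower of 2156 (all events, 1.17% and 0.515%). BRD4884 called 277 higher and 68 lower of 2206 (0.86% and 0.312%), and BRD6688 253 higher and 84 lower of 2200 (0.792% and 0.366%). For these 2 compounds the lower counts rose when either of their libraries was left out, and so did the higher counts. The median PSI difference over all exons tested was 3.36 for Vorinostat, 3.39 for CI-994, 2.28 for BRD4884 and 1.81 for BRD6688, while the median over all exon events was 0 for every compound. In a limma fit across all exon events, with a Benjamini-Hochberg adjusted p under 0.05 and a difference of at least 10 PSI, 87 of the exons were higher and 30 lower with Vorinostat and 73 and 16 with CI-994, and none was called for BRD4884 or BRD6688. With reads weighted by their sampling variance, an alternative added after the data were seen, limma called 22 for BRD4884 and 15 for BRD6688.

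The kinase inhibitors among the activators fell on both sides. NVP-AEW-541, an IGF1R inhibitor, called 257 exons higher and 84 lower of 2164 (all events, 0.765% and 0.422%), and Crenolanib, a PDGFR inhibitor, 264 and 100 of 2156 (0.768% and 0.452%). GNF-5837, a TRK inhibitor, called 306 higher and 91 lower of 2111 (0.915% and 0.494%). Trametinib, a MEK inhibitor, called 192 higher and 56 lower of 2151 (0.649% and 0.343%). SCH-772984, an ERK inhibitor, called 120 higher and 61 lower of 2186 (0.452% and 0.432%), fewer in total (181) than DMSO C against the other DMSO libraries (278). The AKT inhibitor A-443654 went the other way, with 214 higher and 415 lower of 2176 (0.707% and 1.63%) and a median difference of -1.94. In that library 18 of the lower exons and 9 of the higher ones changed by 30 PSI or more.

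The benzenesulfonamides, compounds from the screening library that fall among the activators, lowered more of these exons than they raised. BTB12021 called 253 higher and 431 lower of 2122 (all events, 0.797% and 1.74%), RDR00572 190 and 493 of 2139 (0.641% and 2.02%), S02045 196 and 444 of 2160 (0.613% and 1.72%), and RH01954 138 and 242 of 2161 (0.438% and 0.987%). Between 63.0% and 72.2% of their calls were lower. Of the exons called lower, 37 fell by 30 PSI or more with BTB12021, 33 with RDR00572, 28 with S02045 and 4 with RH01954. The inhibitor T5985871 had 32 such exons. Counts at this threshold over all exon events and between DMSO libraries are not given here. The remaining activators had smaller totals. BTBS00065 called 219 higher and 54 lower of 2178 (0.654% and 0.304%), SEW06315 167 and 69 of 2136 (0.524% and 0.377%), and BTB13120 166 and 135 of 2150 (0.521% and 0.708%).

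All 10 inhibitors had more exons called lower than higher, in several cases by a small margin. DMSO C against the other DMSO libraries also had more called lower (156) than higher (122). Its total of 278 was above those of SPB00858 (274) and T5963258 (274) and near that of 5-azacytidine (281). MK-1775, a WEE1 kinase inhibitor, had the most one-sided response of the 27 compounds, with 98 exons higher and 520 lower of 2166 (all events, 0.352% and 2.64%) and a median difference of -4.03. T5985871 called 250 higher and 419 lower of 2053 (0.823% and 2.62%), and 32 of the lower ones fell by 30 PSI or more. AW00693 called 162 higher and 258 lower of 2157 (0.424% and 1.34%) and JFD00822 88 and 257 of 2184 (0.271% and 1.31%). T5758020 called 136 and 218 of 2171 (0.392% and 1.15%), T5635931 141 and 181 of 2163 (0.388% and 0.947%), and OICR.24K.Dissimilar_18_P14 178 and 211 of 2166 (0.456% and 0.951%). For 5-azacytidine, a DNA methyltransferase inhibitor, 119 exons were called higher and 162 lower of 2174 (0.377% and 1.01%), and for SPB00858 116 and 158 of 2173 (0.323% and 0.741%). T5963258 called 135 higher and 139 lower of 2163 (0.374% and 0.775%), and this turned to 170 higher and 157 lower without the DMSO A library and to 160 and 156 without the filter on read balance.

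**Figure D1:**
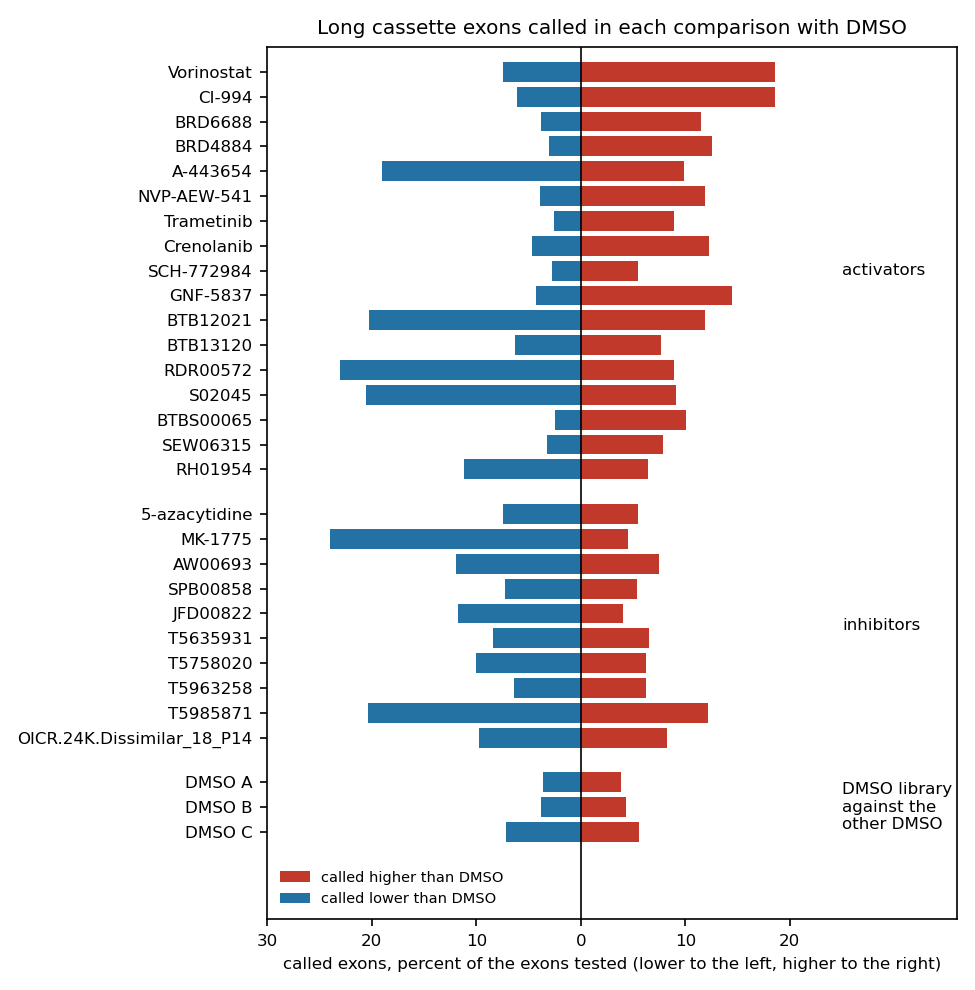
Percentage of the tested exons called higher (red, to the right) or lower (blue, to the left) than DMSO for each compound, and for each DMSO library against the other 2. CI-994 and Vorinostat extend furthest to the right, to 18.6% each, and MK-1775 (24.0%) and RDR00572 (23.05%) furthest to the left, against at most 12.7% called in both directions together in a DMSO library.

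Of the 27 compounds, 21 had more calls than any DMSO library. The rest were Trametinib, SCH-772984, BTBS00065, SEW06315, SPB00858 and T5963258. With 1 library per compound a call has no replicate check, and limma, which takes its spread from the replicated groups, called no exon in 17 of these 23 compounds and at most 35 (T5985871). With weights, it called 47 higher and 86 lower for A-443654, 44 and 89 for BTB12021, 30 and 96 for RDR00572, 37 and 82 for S02045, 14 and 156 for MK-1775 and 48 and 110 for T5985871, each with the same majority as above. The majority turned with weights for RH01954 (16 higher and 12 lower) and BTB13120 (3 and 5), and the few calls without weights were 3 higher and 0 lower for A-443654 and 1 and 0 for MK-1775.

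**Figure D2:**
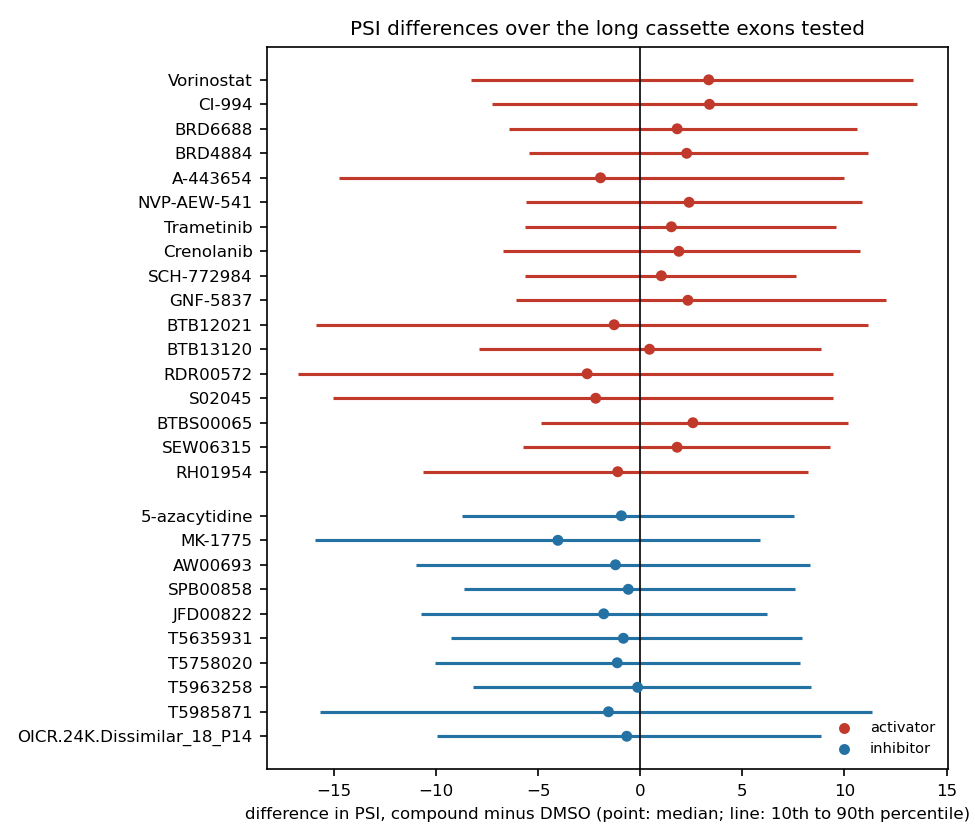
Median (point) and 10th to 90th percentile (line) of the PSI difference between compound and DMSO over the exons tested, for activators (red) and inhibitors (blue). Medians run from -4.03 for MK-1775 to 3.39 for CI-994, and all 10 inhibitors, the 4 benzenesulfonamides and A-443654 lie below 0.

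With some compounds the direction of the calls also differed with the DMSO level. With MK-1775, 2.58% of the exons from 10 to 30 PSI and 30.2% of those from 70 to 90 PSI were called lower. With T5985871, 18.9% of the exons from 10 to 30 PSI were called higher and 4.28% lower, against 7.10% and 25.2% of those from 70 to 90 PSI. With Vorinostat the share called higher was largest in the middle of the range, at 28.8% from 30 to 50 PSI and 30.4% from 50 to 70 PSI, against 15.4% and 13.8% in the outer bins. In each bin Vorinostat called more exons higher than lower, and RDR00572 more lower than higher. The outer bins have less room for change in 1 of the directions. The bins rest on the same DMSO values that serve as the control, and the part of this in the pattern was not tested. PSI is an average over a culture, so a shift in every cell and a larger shift in some cells cannot be told apart.

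The shorter exons with the same DMSO range and coverage are given for comparison, with no test of the difference. Of the 161 microexons, between 74 and 94 were tested, and the activators called a median of 30.4% of them higher and 3.23% lower, while the inhibitors called 2.25% higher and 29.9% lower. For the 273 exons of 28 to 50 nt the activators called a median of 18.5% higher and 4.72% lower, and the inhibitors 4.55% and 14.7%. For the long exons the medians were 10.1% and 4.64% in the activators and 6.25% and 9.89% in the inhibitors. RDR00572 called 28 microexons higher and 7 lower of 92, and A-443654 36 and 2 of 94, whereas both called more long exons lower than higher.

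Most of the exons tested were called with at least 1 compound, a count that includes background calls. Of the 2225 exons tested with at least 1 compound, 1954 (87.8%) were called at least once, 1050 (47.2%) in at least 5 compounds, 332 (14.9%) in at least 10 and 41 in at least 15, and 271 were never called. By this call 371 exons were only ever higher, 550 only lower, and 1033 were called higher with some compounds and lower with others. Among the 332 exons called in at least 10 compounds, 35 were always higher, 40 always lower and 257 mixed. All these comparisons share the DMSO libraries, and the part of the DMSO values in the sharing was not tested. A DMSO library against the other DMSO libraries already had between 7.43% (DMSO A) and 12.7% (DMSO C) of the exons called. Over 27 comparisons such background calls add up, so the counts do not show how widely compound effects were spread. The part of the background in them was not tested, and the same counts over all exon events are not given here. The exons called in at least 10 compounds had a DMSO range of at least 10 PSI in 158 of 332 cases (47.6%) and a median of 172 reads per DMSO library, against 16 of 271 (5.90%) and 563 reads for the exons never called. Among the 1656 tested exons with a DMSO range under 10 PSI, 174 (10.5%) were called in at least 10 compounds and 671 in both directions. By limma 5 of the 210 exons called at all were called in both directions, and with weights 86 of 628. Limma made few calls per exon, and an exon called in 1 compound can have only 1 direction. These counts therefore do not show whether directions were mixed. With weights 63 exons were called in at least 5 compounds, and 5 in at least 10.

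**Figure D3:**
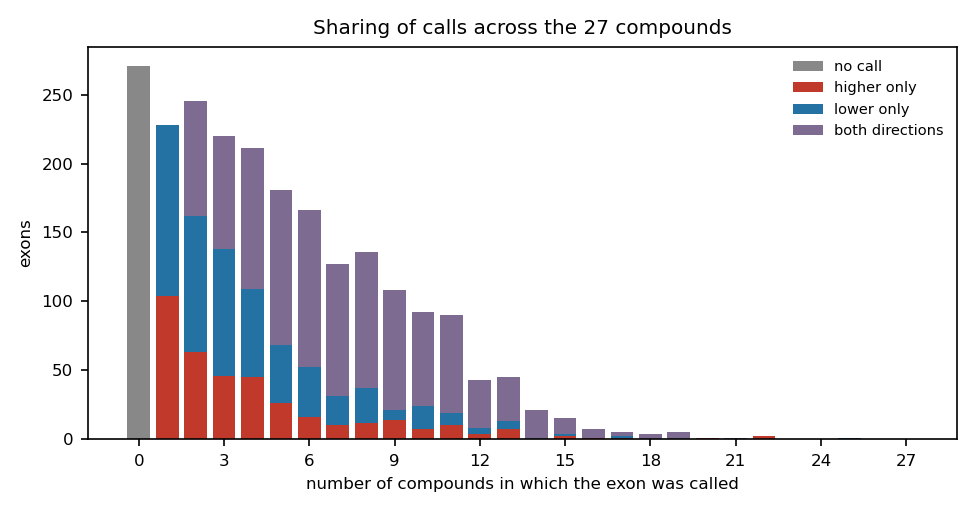
Number of exons by the number of compounds in which they were called, split by direction. The grey bar holds the 271 exons tested and never called, and exons called in both directions are the majority in each bar from 5 to 19 compounds.

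Within kinds of compound, all 4 HDAC inhibitors called 91 exons higher and 8 lower, of 2099 tested with all 4, and at least 2 of them called 359 higher and 101 lower. The 4 benzenesulfonamides together called 48 exons higher and 108 lower of 2028 tested with all 4, and at least 2 of them called 214 and 468. The 6 kinase inhibitors among the activators shared 2 higher exons and 1 lower of 1998. All 10 inhibitors shared no higher exon and 1 lower one of 1914. In these counts the libraries of a kind also share the DMSO control. The same counts over all exon events are not given here, so whether this sharing is particular to these exons cannot be told. The 359 exons that were higher with at least 2 HDAC inhibitors had shorter flanking introns, with medians of 922 nt upstream and 1147 nt downstream, than the 468 exons that were lower with at least 2 benzenesulfonamides (1715 and 2003 nt). Their median GC content was 53.5% and 48.6%. The groups share some exons, and the difference was not tested.

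The exon called in the most compounds was the 75 nt exon of Ttll7, a tubulin polyglutamylase (mm9, chr3:146604783-146604857). It was lower in 25 of 27 compounds. Its PSI was 44.5 in DMSO A, 44.1 in DMSO C and 16.9 in DMSO B, where it failed the filter on read balance and did not enter the DMSO mean used for the calls. With that library kept in, 13 compounds were called lower and 2 higher, and limma passed 2 of the 25 calls (BTB12021 and T5985871), and none with weights. The next were an exon of 69 nt in Nav3, a neuronal microtubule-associated protein, and one of 334 nt in Pogk, a KRAB domain protein. Each was called higher in 22 compounds and lower in none. In Nav3 DMSO PSI was 49.5, 41.2 and 51.5, and 29 of 30 compound libraries lay above all 3. In Pogk it was 67.4, 71.0 and 60.7, and 27 of 31 lay above. The exon of 3110052M02Rik was called higher in 20 compounds, with DMSO PSI of 36.5, 32.1 and 36.3. By limma the Pogk call with T5985871 passed (adjusted p = 0.0375), and with weights no call of Nav3, Pogk or 3110052M02Rik passed. The lowest read count of the Nav3 exon in a library was 16.

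Golim4, which encodes a membrane protein of the Golgi, carried, among the named exons, the one with the most calls passing weighted limma. Its 84 nt exon (mm9, chr3:75706323-75706406) had PSI of 58.2, 60.8 and 60.9 in DMSO. It was higher in 19 compounds and lower in MK-1775 (40.2) and JFD00822 (47.9), and 16 of the 21 calls had an adjusted p under 0.05 by weighted limma, against 2 without weights. PSI was between 68.9 and 81.4 (median 76.3) in the 8 HDAC inhibitor libraries, and 83.6, 75.3, 80.7 and 72.2 with BTB12021, RDR00572, S02045 and RH01954. None of these 12 libraries overlapped DMSO. PSI in the 10 inhibitors ranged from 40.2 to 82.0 (median 69.8). Those called higher were AW00693, T5758020, T5963258, T5985871 and OICR.24K.Dissimilar_18_P14, so a higher PSI was not particular to activators. With Trametinib PSI was 79.3, a limma log2 ratio of inclusion to exclusion reads of 1.35 ± 0.34 (SE) above DMSO with an adjusted p of 0.349, and of 0.0223 with weights.

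In Snap91, which encodes a clathrin assembly protein of nerve terminals, a 108 nt exon (mm9, chr9:86688192-86688299) was higher in 16 compounds and lower in 3. DMSO PSI was 50.3, 50.2 and 46.1. It was 87.4, 82.6, 84.6 and 76.1 with the 4 benzenesulfonamides (in the order above) and 58.1 to 81.2 (median 66.7) in the HDAC inhibitor libraries, all above DMSO, and 31.5 to 59.5 (median 45.2) with the inhibitors, which overlapped it. The 63 nt exon of Madd, a guanine nucleotide exchange factor for Rab3 (mm9, chr2:90995170-90995232), was higher in most activators and lower in most inhibitors. From 49.4, 51.7 and 52.8 in DMSO it rose in 13 activators, with 59.7 to 83.3 (median 69.2) in HDAC inhibitor libraries, and was lower in 6 inhibitors, of which T5985871 and AW00693 were lowest at 21.6 and 21.9. The 10 inhibitors ranged from 21.6 to 54.4 (median 32.2). The activators BTBS00065 (51.8) and BTB13120 (52.6) lay within the DMSO range, so the classes overlapped. No call of the Madd exon passed limma with or without weights, and of the 19 calls of the Snap91 exon 2 passed with weights and none without. The 111 nt exon of Dst, which encodes the cytoskeletal linker dystonin, was higher in 10 compounds and lower in 9. PSI was 61.9, 53.0 and 68.4 in DMSO, 14.5, 25.9, 22.2 and 35.1 with the benzenesulfonamides and 86.6 with T5985871. None of its calls passed limma with or without weights.

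The 3 exons with the largest RDR00572 differences that passed limma separated the 4 benzenesulfonamide libraries from all others. In the 124 nt exon of Zfp740, a zinc finger protein (mm9, chr15:102039184-102039307), PSI was 66.5, 54.8 and 56.8 in DMSO and 12.4, 10.1, 14.4 and 21.9 with BTB12021, RDR00572, S02045 and RH01954. The lowest of the other libraries was 36.2 (SPB00858). With RDR00572 the log2 ratio fell by 3.65 ± 0.45 (limma, adjusted p = 0.0484). The 106 nt exon of Mpzl1, a cell surface glycoprotein of the myelin P0 family (mm9, chr1:167531881-167531986), went from 38.6, 37.4 and 40.7 in DMSO to 83.8, 80.3, 79.9 and 68.1. The log2 ratio with RDR00572 was 2.67 ± 0.32 higher (adjusted p = 0.0484). No other library was above 49.6. The 81 nt exon of Myo5a, the motor myosin Va (mm9, chr9:75040191-75040271), went from 52.3, 48.7 and 48.9 to 79.1, 84.8, 78.9 and 69.8, with a log2 ratio for RDR00572 of 2.48 ± 0.31 (adjusted p = 0.0484). It moved the other way with Vorinostat, to 22.6 and 24.5, and was between 22.6 and 41.4 in all 8 HDAC inhibitor libraries. In all 3 exons RH01954 was the library closest to DMSO of the 4, not all of which had the same concentration. RPKM of Zfp740, Mpzl1 and Myo5a with RDR00572 was 41.0, 34.5 and 49.9, against 38.6, 42.7 and 55.5 in DMSO.

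**Figure D4:**
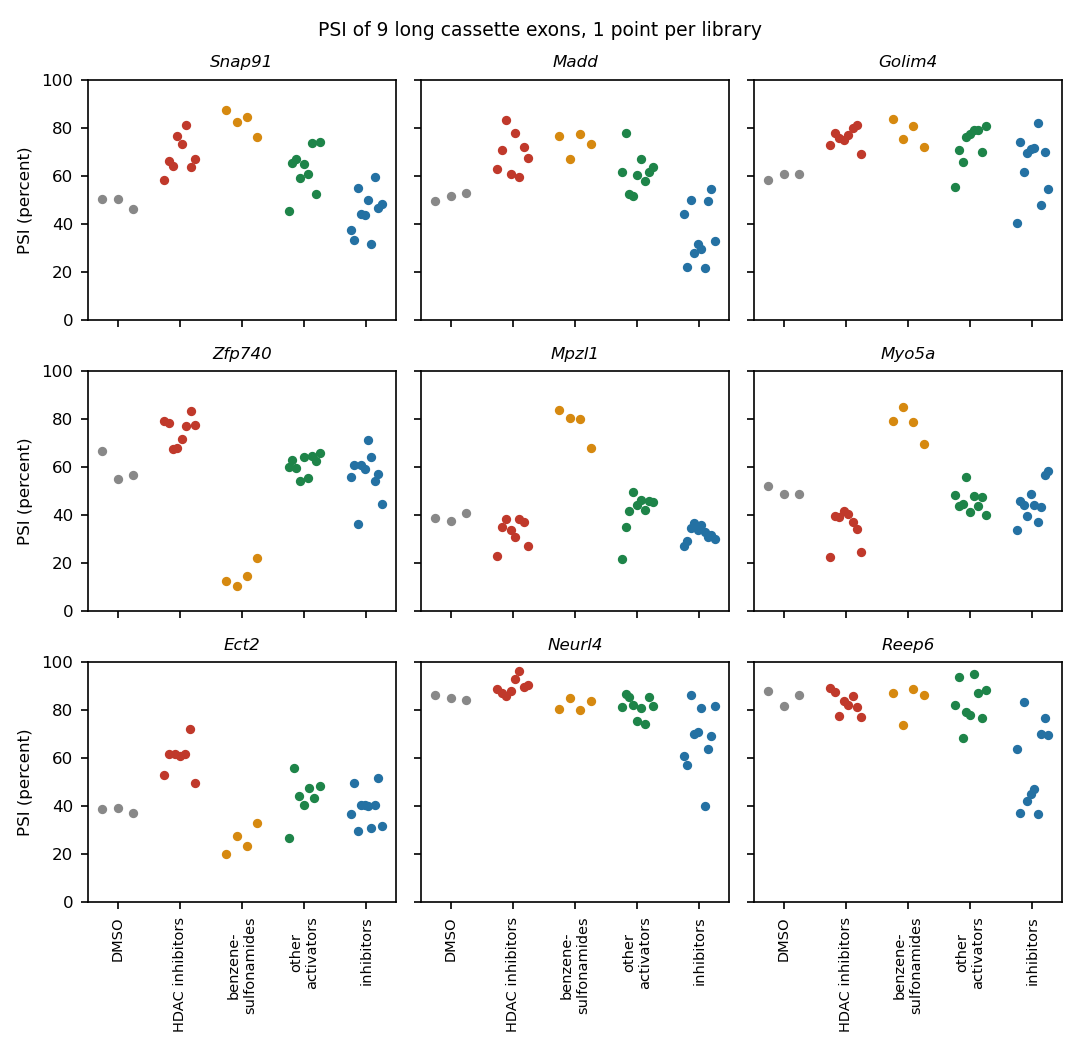
PSI of 9 exons in every library that passed the filters, by DMSO (grey), HDAC inhibitors (red), benzenesulfonamides (orange), other activators (green) and inhibitors (blue). The benzenesulfonamide libraries stand apart from all others in Zfp740, Mpzl1 and Myo5a, and the lowest values of Neurl4 and Reep6 are in the inhibitors.

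With CI-994 the largest differences that passed limma were in Pcyt2, Arhgap12 and 2010317E24Rik. The 54 nt exon of Pcyt2, an enzyme of phosphatidylethanolamine synthesis, went from 36.5, 28.8 and 33.7 in DMSO to 67.3 and 93.7 (log2 ratio 3.41 ± 0.65, adjusted p = 0.0297). It was between 54.8 and 93.7 in all 8 HDAC inhibitor libraries, above DMSO in each. In Arhgap12, a GTPase-activating protein, a 75 nt exon went from 41.8, 34.9 and 39.3 to 83.4 and 83.5 with CI-994 (2.95 ± 0.33, adjusted p = 0.00936), and the 8 HDAC inhibitor libraries lay between 54.0 and 84.5. It was lower with the benzenesulfonamides, at 10.4, 16.4, 10.6 and 27.6. The exon of 2010317E24Rik was called lower with CI-994 on 1 library (PSI 9.09), because the other failed the filters, and its DMSO values of 41.1, 52.4 and 62.2 had an SD of 10.6. With weights this call did not pass (adjusted p = 0.333). Ect2, a guanine nucleotide exchange factor needed for cytokinesis, had a 93 nt exon (mm9, chr3:27047717-27047809) at 38.7, 39.3 and 37.3 in DMSO. It was 49.6 to 72.1 (median 61.5) in the 7 HDAC inhibitor libraries that passed the filters and 20.03, 27.7, 23.4 and 32.9 with the benzenesulfonamides, and neither group overlapped DMSO. All 11 of its calls, 7 higher and 4 lower, passed weighted limma.

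T5985871 and AW00693, the inhibitors named by the selection rule, lowered several exons of high inclusion. In Reep6, a protein that shapes the endoplasmic reticulum, the 81 nt exon (mm9, chr10:79797458-79797538) had PSI of 88.0, 81.6 and 86.5 in DMSO, 36.6 with T5985871 (limma log2 ratio -3.28 ± 0.59, adjusted p = 0.0311), 37.2 with AW00693, 42.0 with T5635931, 44.9 with T5758020 and 47.0 with T5963258. The host gene had 3.98 RPKM in DMSO, and 84 reads covered the exon with T5985871. The 66 nt exon of Neurl4 (mm9, chr11:69717156-69717221) went from 86.3, 85.2 and 84.1 to 40.0 with T5985871 (-3.09 ± 0.58, adjusted p = 0.0373) and 57.3 with AW00693. In Mtif2, a mitochondrial translation initiation factor, a 161 nt exon went from 79.5, 77.6 and 73.7 to 36.7 with T5985871 (-2.47 ± 0.40, adjusted p = 0.0217) and was also lower with the benzenesulfonamides, at 32.7, 44.1, 47.7 and 55.9. For Trametinib and AW00693 no exon passed unweighted limma. Those with the largest differences by weighted limma, chosen after the values were seen, were Plod2, Scamp5 and Golim4 with Trametinib and Reep6, Parp6 and Neurl4 with AW00693. The 63 nt exon of Plod2, a collagen lysyl hydroxylase, was 59.4, 55.4 and 51.9 in DMSO and 80.1 with Trametinib (adjusted p = 0.0487), and the 150 nt exon of Scamp5, a synaptic vesicle protein, was 50.9, 57.3 and 52.2 and 76.4 (adjusted p = 0.0487). The 70 nt exon of Parp6, an ADP-ribosyltransferase, was 90.2, 90.1 and 86.9 in DMSO and 51.4 with AW00693 (adjusted p = 0.0116).

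The exons with the most calls in each direction were those of Dst (10 higher, 9 lower), Plod2 (11 and 8) and Ccdc45 (8 and 8). For Plod2, 8 of 8 HDAC inhibitor libraries lay above DMSO, from 64.4 to 80.7, while RDR00572 gave 31.2, BTB12021 36.4, A-443654 36.4 and MK-1775 34.7. The exon of Ccdc45 had a DMSO range from 64.2 to 79.0, and none of its calls passed weighted limma. The 5 exons that weighted limma called in at least 10 compounds, again chosen after the values were seen, were in Golim4 (15 higher, 1 lower), Dync1i2 (10 and 5), Cdk4 (5 and 7), Sec24c (11 and 0) and Ect2 (7 and 4). In Dync1i2, an intermediate chain of the dynein motor, the 60 nt exon had PSI of 29.3, 26.9 and 26.5 in DMSO, 40.2 to 61.1 in HDAC inhibitor libraries and 7.91 to 33 with inhibitors. In Sec24c, a subunit of the COPII coat, a 69 nt exon had 10.6, 11.8 and 10.3 in DMSO and 34.2 to 45.0 in the HDAC inhibitor libraries. In Cdk4, the kinase that drives entry into S phase, a 234 nt partly coding exon had 76.7, 77.8 and 74.1 in DMSO, 87.4 to 91.1 with HDAC inhibitors and 51.6 to 63.7 with benzenesulfonamides.

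**Figure D5:**
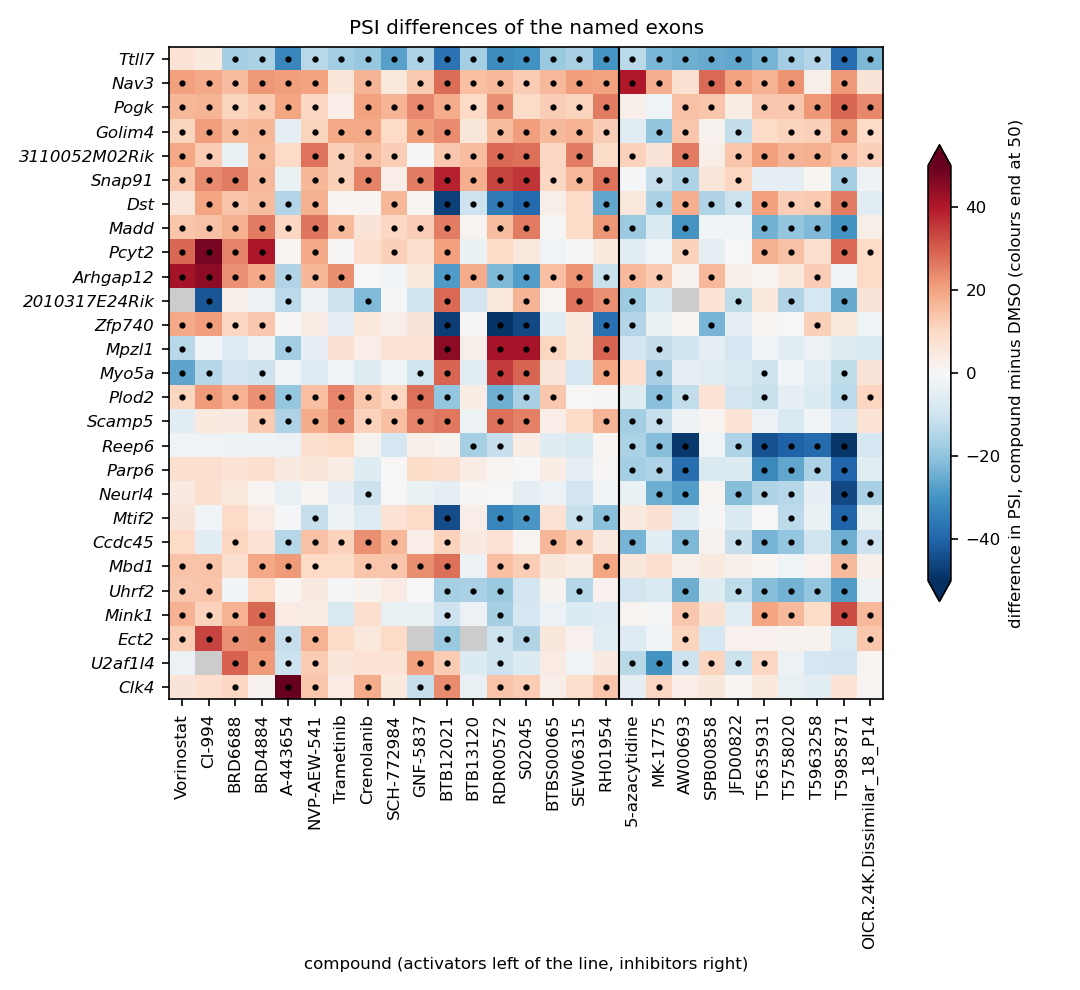
PSI difference from DMSO of the 27 exons chosen by the naming rule (rows) in each compound (columns), with a dot where the exon was called and grey where it was not tested. Rows such as Madd and Snap91 are mostly red for activators and blue for several inhibitors. Zfp740 and Mpzl1 stand out in BTB12021, RDR00572, S02045 and RH01954, and Mtif2 is lower in these and in T5985871.

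The 5 gene lists were described by counts alone, beside the 87.8% called at least once, the 47.2% called in at least 5 compounds and the median of 4 compounds over all 2225 tested exons. Cytoskeleton and adhesion genes held 84 tested exons, of which 73 were called at least once and 44 (52.4%) in at least 5 compounds, with a median of 5. Exons of Dst and Arhgap12 led this list. Membrane trafficking genes held 72, with 63 called and 41 (56.9%) in at least 5 compounds, led by Snap91 and Madd. Chromatin and transcription regulators held 85, with 73 called and 42 (49.4%) in at least 5. They were led by a 165 nt exon of Mbd1, a methyl-CpG-binding protein, higher in 13 compounds (DMSO 16.7, 14.1 and 16.3), and a 260 nt exon of Uhrf2, a ubiquitin ligase, lower in 10 and higher in Vorinostat and CI-994. Genes of signalling, cell cycle and cell death held 78, with 63 called and 31 (39.7%) in at least 5, led by Mink1, a Ste20-family kinase, and Ect2. Splicing and RNA-binding protein genes held 48, with 41 called and 17 (35.4%) in at least 5.

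With CI-994, where 18.6% of all long exons tested were called higher and 6.12% lower with a median difference of 3.39, the chromatin list was near these shares, with 18 exons higher and 4 lower of 84 (median 4.18), as was the cytoskeleton list, with 17 and 4 of 80 (4.85), while the splicing list had 6 and 7 of 46 (0.222). With T5985871, 12.2% of all long exons tested were called higher and 20.4% lower, with a median difference of -1.55. The splicing list had 2 higher and 12 lower of 47 with this compound, and a median of -5.65. With MK-1775, where 24.0% of all long exons tested were called lower, 25 of 85 chromatin exons, 25 of 83 cytoskeleton exons, 17 of 48 splicing exons, 18 of 72 trafficking exons and 12 of 76 signalling exons were called lower. Among the splicing genes, the 91 nt exon of Clk4, a kinase of SR splicing factors (mm9, chr11:51086580-51086670), was at 48.2, 43.6 and 42.5 in DMSO and 99.8 with A-443654, covered by 1351 reads (log2 ratio 9.10 ± 0.36, limma adjusted p = 3.38e-05). Across the other 30 libraries it ranged from 33.1 to 68.2. The 96 nt exon of U2af1l4, a homologue of the small U2AF subunit, was called higher in 7 compounds and lower in 6. It was at 60.9, 71.1 and 55.1 in DMSO and 32.4 with MK-1775, and no call of it passed limma.

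Of related compounds, 2 pairs are listed in the study's supplement at the same concentration. The concentrations of the other HDAC inhibitors and benzenesulfonamides differ from these or from each other, and those values stand side by side above without a comparison of compounds. BRD4884 and BRD6688, both derivatives of CI-994 in the study, differed by a median of 0.545 PSI over 2189 exons (5th to 95th percentile -9.45 to 10.2), and 207 (9.46%) differed by at least 10 PSI. In limma, adjusted over all exon events and both pairs, none of the exons was called (0% of all exon events), the smallest adjusted p was 0.375, and 117 exons (5.34%) had an unadjusted p under 0.05 against 4.94% of all events. RDR00572 was lower than RH01954 by a median of 1.34 PSI over 2100 exons (-15.7 to 11.4), and 447 (21.3%) differed by at least 10 PSI. None was called (0% of all exon events), the smallest adjusted p was 0.407, and 111 (5.29%) had an unadjusted p under 0.05 against 6.09%. The approximate 95% interval of a difference reached a median of 0.864 on either side of the estimate on the log2 ratio scale for BRD4884 against BRD6688 and 1.18 for RDR00572 against RH01954, where each compound has 1 library, so that smaller differences in single exons could not be told from 0.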

How the data were processed

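PolyA+ RNA-seq libraries of N2A cells were processed by the authors with vast-tools against mm9. The deposited event table gives PSI as a percent per exon and library, with a quality string holding coverage and read balance scores and corrected inclusion and exclusion reads, which were used as the read counts. The deposited RPKM values per gene, made by the authors, were used only for host genes and markers. The authors' own comparison columns (differences in PSI and expression) were not used, and 0 value columns lacked a sample. The submitters' processing notes also name Salmon 0.10.2 and edgeR, which played no part here.

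A library was kept for an exon if its coverage score was SOK, OK or LOW and its read balance OK or B1, and a condition if at least 50% of its libraries passed. PSI was compared with the mean of the DMSO libraries, and exons were called where the means lay 10 or more PSI apart and beta distributions on the reads put the posterior of that direction above 0.95. As an alternative, limma 3.58.1 (R 4.3.3) was fitted across all exon events and all 34 libraries to the log2 ratio of inclusion to exclusion reads, with 1 read added to each, and Benjamini-Hochberg adjustment. It takes its spread from the 5 groups with replicates. A weighted limma fit and a repeat without the read balance filter were added after the data were seen. Scripts (Python 3.11.15) were tested on simulated data.

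Exons to be named were those called in the most compounds, those with the largest differences passing limma with CI-994, RDR00572, Trametinib, AW00693 and T5985871, those called most in both directions, and the exons with most calls in each of 5 gene lists. The members, lists and rules were chosen with earlier results of these data known. Event coordinates are mm9, and sequences are from GENCODE vM21 (GRCm38) transcripts. Compound classes, and the names of compounds whose libraries are labelled by a screening code, follow the study's supplement, except that OICR.24K.Dissimilar_18_P14 is given by its label. Some of the cell type markers are not reported here.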

Additional observations from a re-analysis of the deposited data

How the results depend on the processing

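The counts of called exons were far lower by limma, which differs from the posterior call in the spread it uses, the adjustment over all exon events and the scale, and which of these mattered was not tested. By limma the exons called numbered 117 for Vorinostat, 89 for CI-994, 35 for T5985871, 14 for BTB12021, 4 for RDR00572, 3 for A-443654, 1 for GNF-5837 and 1 for MK-1775, and 0 for each of the other 19 compounds. With weights they numbered 165 for Vorinostat, 128 for CI-994, 22 for BRD4884, 15 for BRD6688, 133 for A-443654, 5 for NVP-AEW-541, 9 for Trametinib, 11 for Crenolanib, 1 for SCH-772984 and 26 for GNF-5837. Weighted counts were 133 for BTB12021, 126 for RDR00572, 119 for S02045, 28 for RH01954, 8 for BTB13120, 1 for BTBS00065 and 3 for SEW06315. Among the inhibitors they were 170 for MK-1775, 158 for T5985871, 58 for AW00693, 29 for T5758020, 16 for T5635931, 13 for OICR.24K.Dissimilar_18_P14, 10 for SPB00858, 10 for JFD00822, 5 for T5963258 and 4 for 5-azacytidine. Limma called 210 exons in at least 1 compound, 0 in at least 5, 0 in at least 10 and 5 in both directions, against 628, 63, 5 and 86 with weights, and 2 compounds had more exons lower than higher by limma (15 by the posterior call). The letters of replicates did not pair the libraries (correlations of deviations from -0.067 to 0.041). With the replicate block limma called 127 exons for Vorinostat, 93 for CI-994, 0 for BRD6688 and 0 for BRD4884, and 0 for BRD4884 against BRD6688. A DMSO range of 20 to 80 PSI would give 1289 exons. The stricter coverage score, no read balance filter, PSI from the read counts and leaving out each DMSO or HDAC inhibitor library in turn kept the total of exons called with each compound within 1.5 times. Lower calls alone moved further in 2 cases, from 84 to 139 without BRD6688 replicate B and from 68 to 104 without BRD4884 replicate A. No exons overlap, so keeping 1 per overlapping set changes nothing. With 1 library for 23 compounds, differences between cultures cannot be separated from those between compounds.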
